A study of Homo sapiens with 30 samples.

Results

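The proteasome genes of neuroblastoma (NB) cells were examined in RNA-Seq of the line SH-EP and of 4 derivatives that express exogenous MYCN. The set held 46 of the 26228 genes listed, chosen by symbol alone: every gene whose symbol is PSMA, PSMB, PSMC, PSMD, PSME, PSMF, or PSMG followed by a number, apart from the interferon-inducible beta subunits PSMB8 and PSMB9. Of the 46 genes, 44 had a mean of at least 1 FPKM (fragments scaled to transcript length and library size) over all 30 libraries and were tested, within a fit of all 11575 genes above that level. The remaining pair was PSMA8, an alpha subunit of germ cells, at 0 FPKM in all 30 libraries, and PSMB11, a beta subunit of the thymic cortex, at no more than 0.0955 FPKM.

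The established line SH-EP is a human NB model of mesenchymal identity without MYCN amplification. Parental SH-EP cells carried no transgene, whereas the other 4 lines were stable retroviral derivatives expressing WT MYCN or its phosphorylation-deficient mutants T58A, S62A, or T58A S62A from an exogenous promoter, so MYCN in them was not under its own regulation. Each of the 5 lines was treated for 6 hours with DMSO or with 1 μM CYC065 (fadraciclib), an inhibitor of CDK9 and CDK2, and each of the 10 groups held 3 libraries. The sources used here do not state whether the 3 libraries of a group came from separate cultures or whether a derivative line is 1 clone, so p-values measure the spread between libraries, which may be technical.

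The proteasome degrades proteins that carry ubiquitin chains. Its barrel-shaped core particle, called 20S, stacks outer rings of alpha subunits, which gate the entrance, on inner rings of beta subunits, which hold the peptidase sites. The regulatory particle, called 19S, binds the core through a ring of ATPases that unfolds substrates, while its other base subunits bind ubiquitin chains and other partners and its lid removes the chains. Dedicated assembly factors build both particles and are not part of the finished enzyme. Alternative activators open the core without the regulatory particle, and PSMF1 (PI31) can inhibit it. MYC family proteins are themselves cleared by the proteasome, after phosphorylation at the residues that these mutants change.

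Promoter sequences of 40 of the 46 genes were matched by symbol in RefSeq (build GRCh38.p14, 250 bases before to 50 after the start site), and 4 short motifs were searched on both strands. The E-box CACGTG, which MYC proteins bind, was present in 3 of 40 promoters (7.5%), against 7.435% of all 27305 promoters and 10.59% of the 8609 promoters of tested genes. TGACNNNGC, the core of the antioxidant response element read by NRF-type factors such as NFE2L1, was present in 12 of 40 (30%), against 13.56% of all promoters and 15.5% of those of tested genes. By role it was in 4 of 6 assembly factors, 3 of 4 activators, 2 of 8 lid subunits, 1 of 2 other base subunits, 1 of 6 ATPases, 1 of 6 beta subunits, and 0 of 7 alpha subunits. The windows below show it in the 3 assembly factors PSMG1, PSMG2, and PSMD5, of which PSMG1 had the largest rise in FPKM from SH-EP to the MYCN lines and PSMD5 and PSMG2 the largest falls with CYC065, and in the activators PSME1 and PSME2, which fell in all MYCN lines. Matches to CACGTG are shown for PSMB3 and PSME3, both higher in all MYCN lines on FPKM as deposited. The other members higher in all MYCN lines that had a promoter sequence, such as PSMA1 to PSMA5 and PSMG4, held no CACGTG. TGACNNNGC was also in PSMB3, PSMD3, and PSMD12, which were higher in all MYCN lines on FPKM as deposited, unlike PSME1 and PSME2. It was in PSME4 too, which was higher in the mean of the MYCN lines, and in PSMC4, PSMD1, and PSMD9. It was absent from PSMC6, which fell with CYC065. Whether a match goes with a change was not tested. Capitals mark the motif and each window reads along the strand of its gene.
PSMG1 (chr21:39183615-39183644, minus strand): gcccagggcaTGACAGCGCgggcgggcggt
PSMG2 (chr18:12658689-12658718, plus strand): cagtttcccgTGACCCCGCggccgctctgc
PSMD5 (chr9:120843037-120843066, minus strand): tggctacagtTGACACGGCcctaacggagg
PSME1 (chr14:24136098-24136127, plus strand): atggcagggcTGACCCCGCctcctccatcc
PSME2 (chr14:24146766-24146795, minus strand): ccctggactgTGACCCAGCcagcaccgcct
PSMB3 (chr17:38752491-38752520, plus strand): gtttcaccagccCACGTGcgcgcaggctcc
PSME3 (chr17:42833343-42833372, plus strand): ggctgcgcagcgCACGTGcacagcctcgca
The TGACNNNGC matches start 183 bases before the start site in PSMG1, 39 in PSMG2, 134 in PSMD5, 86 in PSME1, and 175 in PSME2, and the CACGTG matches 238 bases before it in PSMB3 and 42 in PSME3. The remaining CACGTG match lay in the assembly factor PSMD9, whose promoter also held 2 matches to TGACNNNGC that did not overlap it. CCGGAAG, an ETS-type motif, was present in 13 of 40 promoters (32.5%), against 10.67% of all promoters and 20.92% of those of tested genes, in 6 of 8 lid and 3 of 6 ATPase promoters and in 0 of 6 beta and 1 of 7 alpha promoters. That alpha promoter was of PSMA8, which, like PSMB11, was counted among the 40 though not tested. ATTGG, the core of the CCAAT box on the opposite strand, was present in 18 of 40 (45%), against 35.7% of all promoters and 37.43% of those of tested genes. A match describes the letters in the window only, and its absence bears on nothing but those letters.

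MYCN was listed at 0 FPKM in every SH-EP library. In DMSO it was at 13.3, 13.7, and 11.7 FPKM in the WT line, 7.27, 9.84, and 8.44 in T58A, 5.08, 6.59, and 5.51 in S62A, and 15.7, 9.06, and 15.7 in T58A S62A. Presence or absence of MYCN transcripts thus matched the labels, though FPKM per gene cannot tell WT MYCN from its mutants. All 6 mesenchymal markers examined were detected in all 30 libraries (VIM at 1305 to 4599 FPKM), whereas of the adrenergic markers PHOX2A was at 0 in 30 libraries and DBH in 29, and of markers of blood and epithelial cells HBB and KRT5 were at 0 in 30. Read counts were not given. The step of the lowest FPKM values put relative depth at 0.47 to 1 in DMSO libraries and 0.293 to 0.555 in CYC065 libraries, ranges that overlapped over all lines. Within SH-EP, T58A, S62A, and T58A S62A, however, every CYC065 library was shallower than every DMSO library. Only in WT did they overlap (0.555 with CYC065, 0.529 in DMSO). FPKM values summed to 415637 to 496771 in DMSO libraries and 667866 to 761639 in CYC065 libraries, and the scaling factors from spike-in RNAs, which were added by cell number, were 3.05 to 3.28 in SH-EP against 0.722 to 2.01 in the MYCN lines in DMSO. All 6 SH-EP libraries shared their index sequences with libraries of MYCN lines, and libraries with the same index cannot share a sequencing pool. The labels name no pool, so effects of pool and of line cannot be told apart.

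In SH-EP cells in DMSO, genes of both particles were among the most abundant transcripts per length, and assembly factors were less abundant. On the FPKM scale as deposited, the median alpha subunit was at 117 FPKM and the median beta subunit at 156 FPKM, at the percentiles 95.01 and 96.6 of all tested genes. PSMB4, a noncatalytic beta subunit, was the highest member at 546 ± 7.59 FPKM (SD, n = 3), and PSMA7 the highest alpha subunit at 231 ± 2.86 FPKM (SD, n = 3). The subunits of a ring occur once per ring, yet transcript levels spanned 8.53-fold over the 7 alpha subunits, from PSMA5 at 27.1 ± 0.197 FPKM (SD, n = 3) up to PSMA7.

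Among the catalytic subunits, PSMB5 (chymotrypsin-like site) was at 169 ± 3.43 FPKM, PSMB7 (trypsin-like site) at 150 ± 5.99, and PSMB6 (caspase-like site) at 105 ± 3.77 (SD, n = 3), in an order without overlap between libraries. PSMB10, which replaces PSMB7 in the immunoproteasome, was the lowest beta subunit at 26.8 ± 1.03 FPKM (SD, n = 3). Its level divided by that of PSMB7 was 0.179, 0.177, and 0.180 in the 3 SH-EP libraries in DMSO. ATPases spanned 59.8 ± 3.95 (PSMC6) to 182 ± 2.29 FPKM (PSMC5), the other base subunits 67.7 ± 0.466 (PSMD1) to 194 ± 4.90 FPKM (PSMD2), and the lid 38.1 ± 0.451 (PSMD11) to 99.1 ± 2.77 FPKM (PSMD8; SD, n = 3 for each). Assembly factors ran from 14.9 ± 0.401 (PSMD5) to 53.0 ± 1.48 FPKM (PSMG3), with a median of 26.3 FPKM at the percentile 74.6. Of the activators, PSME2 was at 95.9 ± 2.71, PSME1 at 79.9 ± 4.16, PSME3 at 58.2 ± 2.25, and PSME4 at 14.9 ± 0.380 FPKM, and the inhibitor PSMF1 was at 21.4 ± 0.935 FPKM (SD, n = 3).

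The plot of mean levels shows that this order of roles was similar in the MYCN lines, where PSMB4 stayed the highest member in WT, T58A, and T58A S62A cells but not in S62A cells, in which PSMA7 (356 FPKM) stood above PSMB4 (290.05 FPKM).

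**Figure D1:**
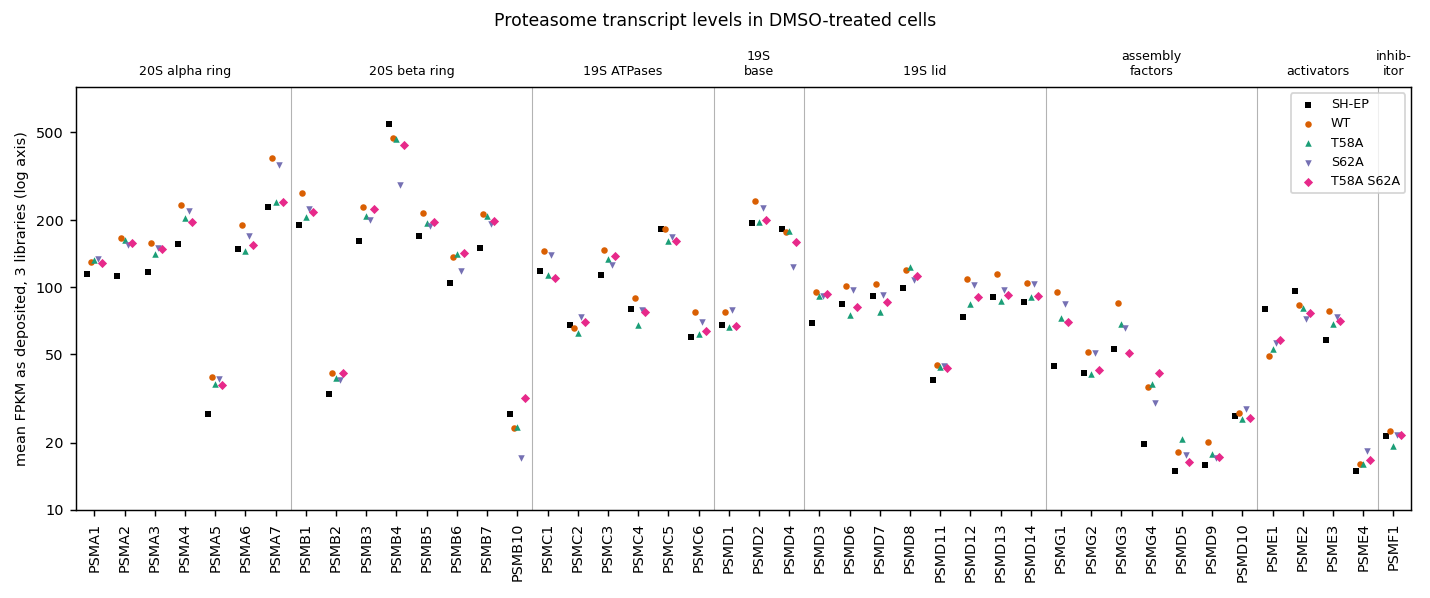
Mean FPKM as deposited (log axis, 3 libraries per point) of the 44 tested proteasome genes in DMSO, grouped by role, for SH-EP and the 4 MYCN lines. In SH-EP the points run from 14.9 FPKM (PSME4) to 546 FPKM (PSMB4), and assembly factors lie below most subunits.

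The first comparison concerned the MYCN lines and parental SH-EP cells, both in DMSO, on FPKM as deposited. Most proteasome genes were higher in the MYCN lines, by small amounts, while a few were lower. With limma on log2(FPKM + 0.1) and a Benjamini-Hochberg adjusted p under 0.05 over all tested genes, 32 of 44 members were higher and 3 lower in WT cells, where 31.6% of all tested genes were higher and 22.6% lower. In T58A cells 20 were higher and 7 lower (all genes 30.9% and 23.3%), in S62A cells 27 and 5 (31% and 23.4%), and in T58A S62A cells 20 and 5 (31.2% and 24.1%). The median log2 difference of the members was 0.33 for the WT line and 0.11, 0.22, and 0.11 for T58A, S62A, and T58A S62A, against 0.07, 0.05, 0.06, and 0.06 over all tested genes. Averaged over the 4 lines, 30 members were higher and 5 lower (all genes 34.6% and 26.3%). The order of the lines by number of members higher was not the order of their MYCN transcript levels. Every S62A library had less MYCN RNA than every other MYCN library. RNA-Seq does not give MYCN protein, and a relation to MYCN dose was not tested. All 4 contrasts use the same 3 SH-EP libraries, so they are not independent of each other. On values centred on each library's median 27 were higher and 5 lower in the mean (all genes 33.6% and 26.9%), whereas on spike-in scaled values all 44 members were lower in the mean of the MYCN lines (all genes 91.2%), by a median of -1.06 against -1.17 for all tested genes, and 32 of 44 lay above that shift of all genes.

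**Figure D2:**
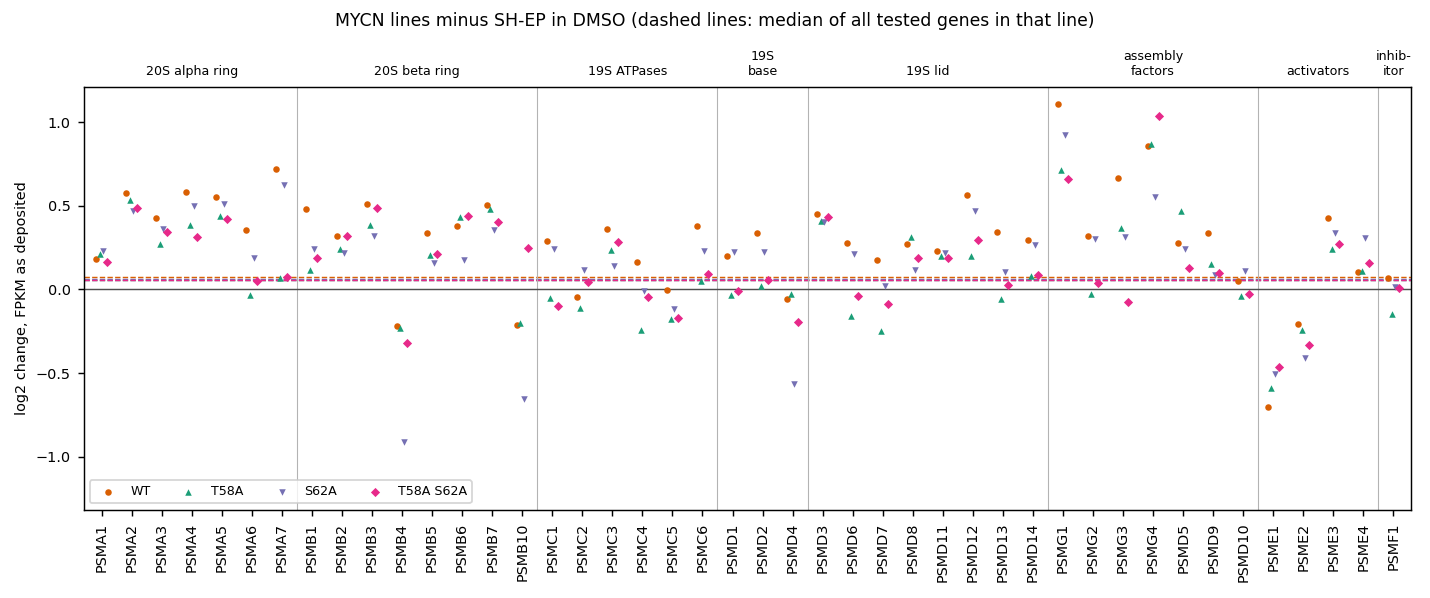
Log2 difference of each MYCN line from SH-EP in DMSO (FPKM as deposited, 3 against 3 libraries) for the 44 tested members by role, with a marker per line. Dashed lines give the median of all tested genes in each line, 0.05 to 0.07. PSMG1 and PSMG4 stand highest, and PSME1 and PSME2 lie below 0 in every line.

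In the alpha ring all 7 tested subunits were higher in the mean of the lines, with a median of 0.37. PSMA2 rose by 0.52 on the log2 scale (SE 0.045, limma adjusted p = 5.9e-10), or 1.43-fold. It was at 114, 111, and 113 FPKM in SH-EP, 170.5, 163, and 168 in WT, 168, 161, and 159.6 in T58A, 157, 154, and 157 in S62A, and 142, 181, and 151 in T58A S62A. No MYCN library overlapped SH-EP. PSMA5, the least abundant alpha subunit, was higher by 0.48 (SE 0.044, limma adjusted p = 1.48e-09). PSMA1 to PSMA5 were higher in each of the 4 lines. PSMA7 was at 233, 228, and 232 FPKM in SH-EP, 426, 362, and 355 in WT, 359, 335, and 374 in S62A, 227, 264, and 237 in T58A, and 238, 223, and 269 in T58A S62A. It thus rose in WT (0.72) and S62A (0.62), whereas libraries of the lines with T58A overlapped those of SH-EP.

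Of 8 tested beta subunits, 6 were higher in the mean of the lines and PSMB4 was lower. Among the catalytic subunits, PSMB7 rose by 0.44 (SE 0.046, limma adjusted p = 1.32e-08). PSMB7 was at 143, 154, and 153 FPKM in SH-EP, 233, 216, and 194 in WT, 218, 218, and 193 in T58A, 182, 203, and 193 in S62A, and 199, 199, and 198 in T58A S62A. All 12 MYCN libraries lay above all 3 SH-EP libraries. PSMB6 rose by 0.36 (SE 0.052, limma adjusted p = 2.09e-06), from 107, 107, and 101 FPKM in SH-EP to 153, 135, and 122 in WT, 136, 145, and 144 in T58A, 117, 120, and 120 in S62A, and 142, 133, and 153 in T58A S62A, also without overlap. PSMB5 rose by 0.23 (SE 0.054, limma adjusted p = 0.000773), from 166, 170.2, and 172 FPKM in SH-EP to 243, 214, and 189 in WT, 206, 193, and 187 in T58A, 177, 206, and 186 in S62A, and 204, 199, and 187 in T58A S62A. Its groups did not overlap either, though in S62A alone its difference of 0.16 did not pass the test.

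PSMB4 and PSMB10 differed from the other beta subunits. PSMB4 was at 554, 539, and 543 FPKM in SH-EP, 522, 455, and 433 in WT, 442, 490.0, and 462 in T58A, 278, 319, and 274 in S62A, and 439, 438, and 432 in T58A S62A. Every MYCN library lay below SH-EP, S62A furthest (-0.91), and the mean fell by 0.42 (SE 0.048, limma adjusted p = 4.95e-08). PSMB10 was at 25.7, 27.3, and 27.6 FPKM in SH-EP, 27.1, 23.1, and 19.9 in WT, 21.4, 26.5, and 22.4 in T58A, 15.7, 16.5, and 19.1 in S62A, and 31.9, 31.1, and 32.5 in T58A S62A. It fell in S62A (-0.65) and differed by 0.24 in T58A S62A without passing the test, and its mean difference was -0.21 (95% interval -0.42 to 0.01, limma adjusted p = 0.0838). The PSMB10 to PSMB7 ratio of FPKM was 0.0862, 0.0813, and 0.0990 in S62A and 0.161, 0.156, and 0.164 in T58A S62A, all below the SH-EP libraries.

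The regulatory particle moved less evenly. Of its 6 ATPases, 2 were higher in the mean (PSMC3 0.26 and PSMC6 0.19) and PSMC5 was lower (-0.12). The other 3 did not pass. The 95% interval of PSMC2 was -0.14 to 0.15 and that of PSMC1, which has 13 annotated pseudogenes that could share its reads, was -0.18 to 0.37. Of the other base subunits, PSMD2 (0.16) and PSMD1 (0.10) were higher, and the ubiquitin receptor PSMD4 was lower (-0.21), most in S62A (-0.56). Of the 8 lid subunits, 6 were higher, led by PSMD3 (0.42, SE 0.050, limma adjusted p = 7.75e-08) and PSMD12 (0.38, SE 0.046, limma adjusted p = 1.13e-07), and none was lower. In the lid, PSMD6 and PSMD7 were higher in WT (0.28 and 0.18) and lower in T58A (-0.16 and -0.25). The lid subunit PSMD14, the deubiquitinating enzyme, was higher in the mean by 0.18.

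The largest rises were in the assembly factors PSMG1 and PSMG4, while the other assembly factors changed less. PSMG1, which forms a dimer with PSMG2 that builds the alpha ring, was at 39.5, 47.4, and 46.1 FPKM in SH-EP, 97.4, 95.4, and 93.7 in WT, 67.2, 83.9, and 67.4 in T58A, 81.8, 82.1, and 88.0 in S62A, and 74.1, 62.6, and 73.7 in T58A S62A. All 12 MYCN libraries lay above SH-EP, and the mean rose by 0.85 (SE 0.064, limma adjusted p = 4.5e-11), or 1.80-fold. PSMG4, the partner of PSMG3, was at 20.4, 21.8, and 17.0 FPKM in SH-EP, 39.0, 35.1, and 32.8 in WT, 33.2, 46.4, and 30.1 in T58A, 35.4, 18.4, and 36.6 in S62A, and 48.0, 31.2, and 43.9 in T58A S62A. Of the S62A libraries 1, at 18.4 FPKM, lay within the SH-EP range, and the mean rose by 0.83 (SE 0.18, limma adjusted p = 0.000418). PSMG3 (0.32), PSMD5 (0.28), and PSMD9 (0.17), the latter pair chaperones of the ATPase ring, were also higher in the mean. PSMG2 (0.16, limma adjusted p = 0.241) and PSMD10 (0.02, 95% interval -0.14 to 0.18) did not pass, so the partners PSMG1 and PSMG2 differed in their calls, a contrast that was not itself tested.

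The activators split. PSME1 and PSME2 form the interferon-inducible ring that caps the core in antigen processing, and both fell in all 4 lines. PSME1 was at 77.2, 84.7, and 77.9 FPKM in SH-EP, 56.3, 46.1, and 45.4 in WT, 53.0, 52.4, and 53.8 in T58A, 54.4, 58.4, and 56.1 in S62A, and 58.3, 60.3, and 55.0 in T58A S62A. No MYCN library reached the SH-EP range, and the mean fell by 0.57 (SE 0.053, limma adjusted p = 2.01e-09), or 1.48-fold. PSME2 was at 92.7, 97.3, and 97.5 FPKM in SH-EP, 93.2, 79.4, and 77.1 in WT, 79.7, 81.1, and 82.1 in T58A, 74.1, 71.9, and 70.0 in S62A, and 80.2, 79.7, and 69.1 in T58A S62A. The WT library at 93.2 FPKM overlapped SH-EP, and 6 annotated pseudogenes of PSME2 could share its reads. The mean fell by 0.30 (SE 0.046, limma adjusted p = 4.23e-06). The genes lie 4394 bp apart on chromosome 14 (GRCh37, PSME1 at 24605372 to 24608176 on the plus strand and PSME2 at 24612571 to 24616779 on the minus strand). The nuclear activator PSME3 was at 56.8, 60.8, and 57.0 FPKM in SH-EP and 65.7 to 79.1 FPKM in the 12 MYCN libraries, higher in all 4 lines (mean 0.32, SE 0.037, limma adjusted p = 5.79e-08). PSME4 was higher by 0.17, and PSMF1 was at -0.01 (95% interval -0.13 to 0.10).

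**Figure D3:**
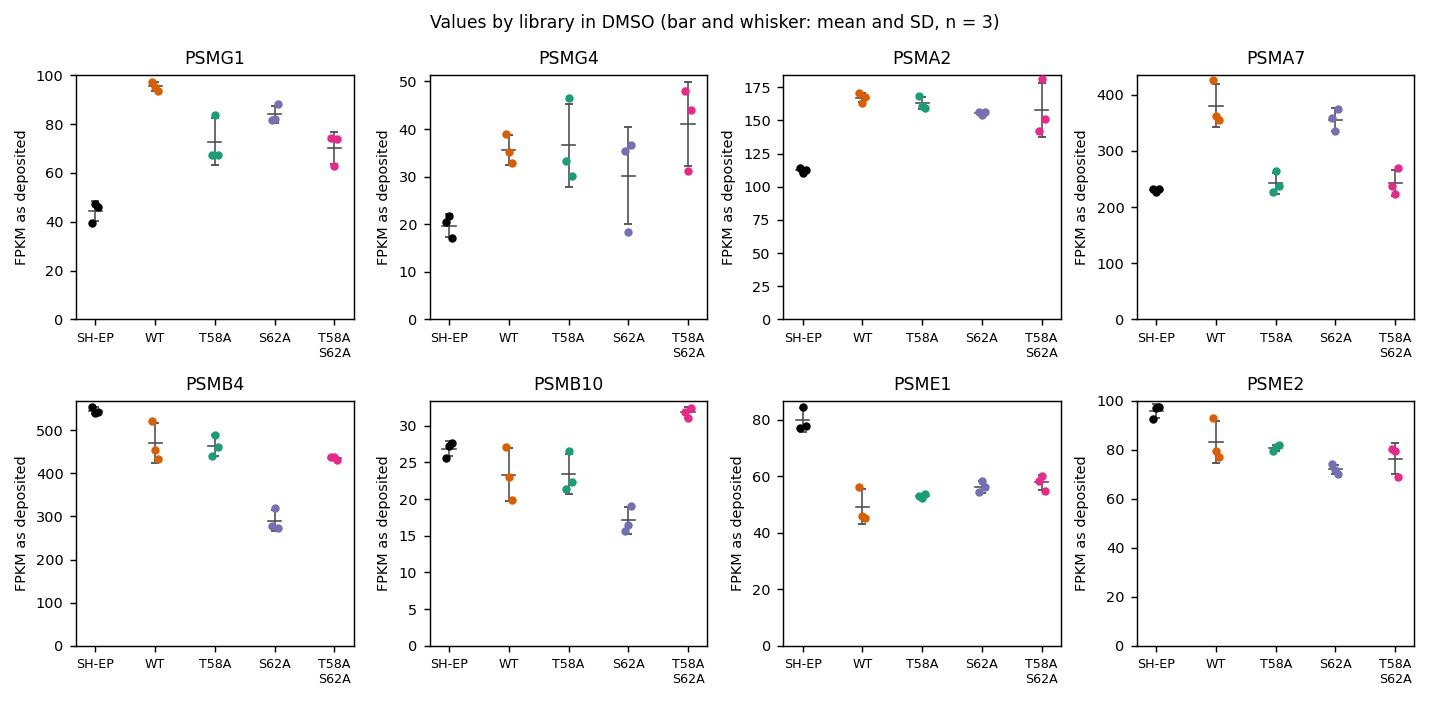
FPKM as deposited in every DMSO library for 8 members, by line, with bars and whiskers for the mean and SD (n = 3). PSMG1 and PSMA2 lie above SH-EP in all 12 MYCN libraries, PSME1 and PSMB4 lie below it in all 12, and PSMA7 is high in WT and S62A only (426, 362, 355 and 359, 335, 374 FPKM).

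Counted across lines, 16 members passed in the higher direction in all 4 lines and 3 in the lower direction, against 19.2% and 13.4% of all tested genes. The 16 were PSMA1 to PSMA5, PSMB2, PSMB3, PSMB6, PSMB7, PSMC3, PSMD3, PSMD11, PSMD12, PSMG1, PSMG4, and PSME3, and the 3 were PSMB4, PSME1, and PSME2. Of 30 related genes outside the set (other proteasome-bound proteins, shuttle factors, ubiquitin genes and regulators of proteasome transcription), 15 were higher and 4 lower in the mean of the lines on FPKM as deposited (all genes 34.6% and 26.3%), with a median of 0.11, whereas on the spike-in scale none was higher and 29 were lower (all genes 91.2% lower). On FPKM as deposited the proteasome-bound deubiquitinase USP14 (0.34), the small lid subunit SHFM1 (0.43), and DDI2 (0.79), the protease that activates NFE2L1, were higher, while NFE2L1 itself was lower (-0.41). POMP, a chaperone of the beta ring, was higher in WT (0.42) and S62A (0.24) and lower in T58A (-0.24).

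The second comparison set the phosphorylation-deficient mutants against WT MYCN in DMSO, on FPKM as deposited. On that scale more members passed as lower than as higher in the mutants, by small amounts, and most passed in neither direction. With limma, 16 members were lower and none higher in T58A (all tested genes 13% lower and 10.7% higher; 23 of 44 had an unadjusted p under 0.05), 13 lower and 2 higher in S62A (14% and 10.1%), and 18 lower and 2 higher in T58A S62A (14.2% and 9.43%). Averaged over the mutants, 19 were lower and 1 higher (13.1% and 8.73%), with a median of -0.14 against -0.03 for all tested genes. The 3 contrasts share the WT libraries, in which the library numbered 0 in the table had the highest level of PSMA7, PSMB4, PSMB5, PSMB6, PSMB7, PSMG3, and PSMD4. Without it, 4 members were lower in S62A instead of 13 and 1 higher instead of 2, while without the S62A library numbered 0 there were 7 lower and without the WT library numbered 1 there were 8. On spike-in scaled values 0 members passed with limma in either direction in T58A (all genes 8.59%, 2 members with an unadjusted p under 0.05) and in the mean (1.05%, 4 members). There 2 were higher and none lower in T58A S62A (23.2% of all genes higher), and all 44 were lower in S62A (74.8%), where the median of all tested genes was also lower (-0.71).

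The 3 largest falls from WT were in PSMG3, PSMA7, and PSMG1. PSMG3 was at 102, 80.4, and 73.1 FPKM in WT, 63.1, 67.8, and 74.2 in T58A, 69.4, 61.2, and 67.0 in S62A, and 47.9, 44.6, and 59.6 in T58A S62A. T58A overlapped WT whereas the other mutants did not, and the mean fell by 0.47 (SE 0.101, limma adjusted p = 0.00162). PSMA7 fell by 0.46 in the mean (SE 0.054, limma adjusted p = 1.39e-06), by 0.65 in both lines with T58A, while S62A was at -0.10 and overlapped WT. PSMG1 fell by 0.34 (SE 0.067, limma adjusted p = 0.000554), to levels that stayed above SH-EP in all 9 mutant libraries. PSME1 was the member that rose, by 0.18 (SE 0.055, limma adjusted p = 0.018). That call was lost without the WT library numbered 1 (0.14, limma adjusted p = 0.144) or numbered 2 (0.13, limma adjusted p = 0.152), and in a fit of the DMSO groups alone.

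By role, all 3 other base subunits (PSMD1, PSMD2, PSMD4), 4 of 6 ATPases, 4 of 8 lid subunits, and 3 of 7 assembly factors were lower in the mean of the mutants, as were 2 of 7 alpha subunits (PSMA6 and PSMA7) and 2 of 8 beta subunits (PSMB1 and PSMB4), where 13.1% of all tested genes were lower. Differences between roles were not tested. PSMB1, PSMC4, PSMD7, and PSMD13 were lower in each of the 3 mutants, against 2.06% of all tested genes. PSMB10 went down in S62A (-0.44) and up in T58A S62A (0.46). Of the catalytic subunits, PSMB6 was lower in S62A (-0.20), and PSMB5 and PSMB7 did not pass in any mutant (mean of PSMB7 -0.09, 95% interval -0.19 to 0.00).

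Some of these differences were shared with genes nearby on the chromosome. PSMA7 lies on chromosome 20 (60711789 to 60718496 of GRCh37, minus strand), and of the 15 other tested genes within 1 Mb of it, 12 were lower and none higher in T58A than in WT (median -0.42), and 11 lower and none higher in T58A S62A (median -0.36). In S62A against SH-EP, 13 of the 15 were higher, as PSMA7 was. PSMB4 and PSMD4 lie 132080 bp apart on chromosome 1 (PSMB4 at 151372036 to 151374413, PSMD4 at 151227185 to 151239955, both plus strand). In S62A against WT they fell by 0.70 and 0.51, and 18 of 35 and 21 of 39 neighbours were lower with none higher, where 14% of all tested genes were lower. PSMG3, on chromosome 7 (1606968 to 1610641, minus strand), fell by 0.74 in T58A S62A against WT, and 16 of its 23 neighbours were lower with none higher (median -0.51). For PSMG1 on chromosome 21 (40546695 to 40555414, minus strand), only 4 neighbours were tested, with a median of 0.30 in the mean of the MYCN lines against 0.85 for PSMG1. The part of copy number or of regional expression in these values was not tested.

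The third comparison set CYC065 against DMSO within each line, on spike-in scaled FPKM, which refer to the number of cells. In bulk samples fewer cells of a type and less RNA per cell cannot be told apart. Transcripts of every tested proteasome gene fell with CYC065 in the mean of the 5 lines, and most members fell less than the median of all tested genes. With limma, 44 of 44 members were lower and none higher in the mean (all tested genes 94.4% lower and 1.59% higher), and 37 of 44 lay above the median change of all genes. The members' median was -0.78 and that of all tested genes -1.20. By line, 32 members fell in SH-EP (75.7% of all genes), all 44 did so in WT (93.7%) and in S62A (90.2%), 33 in T58A (84.2%), and 29 in T58A S62A (76.3%). The medians in SH-EP, WT, S62A, T58A, and T58A S62A were -0.63, -1.20, -0.87, -0.56, and -0.49, against -1.06, -1.57, -1.35, -1.08, and -0.97 for all genes. On FPKM as deposited, where each library is relative to its own total, the direction turned for most members: 39 were higher and 4 lower in the mean (all genes 46.9% and 39.8%), with a median of 0.56 against 0.10. PSMC6, PSMG2, PSMG3, and PSMD5 were the 4 that were lower on either scale.

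**Figure D4:**
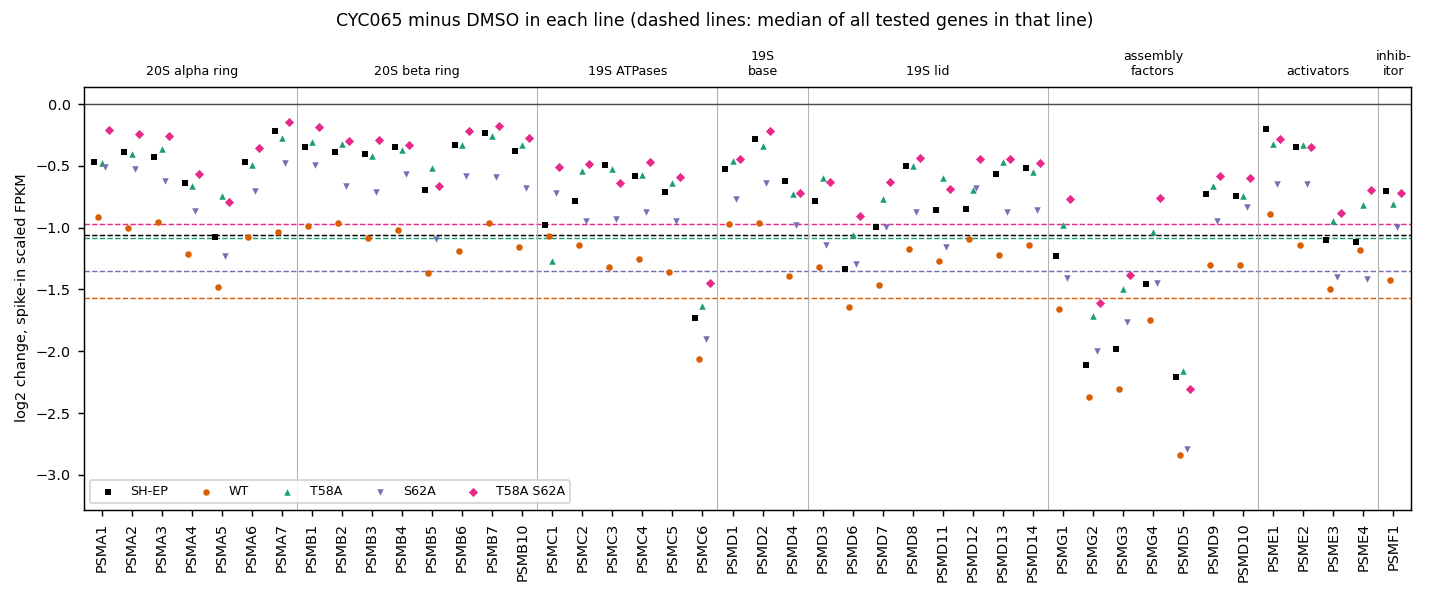
Log2 change with CYC065 in each line (spike-in scaled FPKM, 3 against 3 libraries) for the 44 tested members by role, with a marker per line. Dashed lines give the median of all tested genes per line (-0.97 to -1.57). Nearly all core subunits lie above the line of their own cells, and PSMC6, PSMG2, PSMG3, and PSMD5 lie below it.

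The core particle fell least. The median change was -0.53 for the alpha ring and -0.53 for the beta ring in the mean of the lines, and PSMA7 (-0.43), PSMB7 (-0.44), and PSMB1 (-0.46) had the smallest falls. PSMB7 on the spike-in scale was at 462, 470, and 503 in DMSO and 444, 427, and 354 in CYC065 in SH-EP, where it did not pass (-0.23), and at 383, 243, and 248 in DMSO and 168, 128, and 146 in CYC065 in WT, where it did (-0.96). The treatments did not overlap in either line, though in SH-EP they lay close (444 under CYC065 and 462 in DMSO). PSMB6 was at 346, 326, and 330 in DMSO and 291, 271, and 239 in CYC065 in SH-EP, and at 252, 152, and 156 against 96.3, 66.1, and 80.0 in WT. Its mean fell by 0.53 (SE 0.085, limma adjusted p = 1.58e-06). PSMB5 fell further than the other catalytic subunits (-0.86, SE 0.088, limma adjusted p = 4.84e-10), from 533, 519, and 566 to 349, 367, and 291 in SH-EP and from 400, 241, and 242 to 124, 99.4, and 110.5 in WT. It fell in each of the 5 lines. PSMB10 was at 82.6, 83.2, and 90.6 in DMSO and 71.1, 71.0, and 56.4 in CYC065 in SH-EP, and its mean fell by 0.56 (SE 0.091, limma adjusted p = 1.65e-06). On FPKM as deposited all 4 rose, PSMB5 by 0.48, PSMB6 by 0.81, PSMB7 by 0.90, and PSMB10 by 0.77.

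In the other MYCN lines the log2 difference was -0.18 to -0.59 for PSMB7 and -0.51 to -1.09 for PSMB5. PSMB7 was at 416, 262, and 373 in DMSO against 274, 290.4, and 299.4 in CYC065 in T58A, 149, 190.3, and 139 against 117, 91.8, and 107 in S62A, and 399, 358, and 312 against 333, 264, and 351 in T58A S62A. The treatments overlapped in T58A and in T58A S62A and not in S62A. PSMB5 was at 394, 232, and 362 against 228, 212, and 236 in T58A, 145, 193, and 135 against 80.2, 64.0, and 76.2 in S62A, and 410, 359, and 294 against 227, 192, and 250.1 in T58A S62A. Of these, T58A overlapped between treatments. PSMB6 was at 260.4, 173, and 279 against 179, 185, and 193 in T58A, 95.5, 112, and 86.5 against 72.3, 55.6, and 68.7 in S62A, and 284, 239, and 241 against 229, 185, and 247 in T58A S62A. PSMB10 was at 44.5, 25.9, and 25.4 against 17.8, 10.3, and 14.3 in WT, 40.9, 31.8, and 43.3 against 31.4, 34.7, and 25.8 in T58A, 12.8, 15.5, and 13.8 against 8.41, 9.91, and 7.97 in S62A, and 64.1, 56.0, and 51.2 against 47.0, 39.6, and 56.3 in T58A S62A. Both overlapped between treatments in T58A and T58A S62A, and neither did in S62A.

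PSMA5 (-1.07) and PSMA4 (-0.79) fell furthest in the alpha ring. The ATPases had a median of -0.81, and PSMC6 stood apart from the other 5 (-0.75 to -0.91). It was at 179.8, 182, and 209 in DMSO and 59.6, 65.1, and 48.1 in CYC065 in SH-EP, and at 118, 89.0, and 106 against 23.9, 22.8, and 27.7 in WT. Its mean fell by 1.76 (SE 0.079, limma adjusted p = 8.91e-18), or 3.38-fold. Among the other base subunits, PSMD2 fell by 0.49, PSMD1 by 0.63, and PSMD4 by 0.89. Lid subunits had a median of -0.82, from PSMD8 (-0.70) to PSMD6 (-1.25).

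Assembly factors fell most, with a median of -1.29, and 5 of the 7 lay below the median of all tested genes. PSMD5, which holds the ATPase ring during assembly, fell by 2.46 (SE 0.077, limma adjusted p = 4.22e-21), or 5.51-fold, the largest change of any member. It was at 46.8, 45.7, and 50.3 in DMSO and 11.7, 10.1, and 9.03 in CYC065 in SH-EP, 28.0, 21.1, and 23.8 against 3.35, 3.003, and 3.52 in WT, and 38.3, 25.7, and 39.9 against 8.36, 7.55, and 6.71 in T58A. In S62A it was at 14.5, 16.3, and 13.1 against 2.25, 1.93, and 1.90, and in T58A S62A at 32.0, 27.8, and 28.0 against 5.77, 4.62, and 7.42. Every line was lower without overlap. PSMG2 fell by 1.96 (SE 0.085, limma adjusted p = 4.11e-18), or 3.89-fold. It went from 132, 122, and 138 to 30.1, 35.2, and 26.0 in SH-EP, from 83.9, 57.8, and 65.2 to 14.003, 10.3, and 15.7 in WT, and from 77.2, 59.0, and 63.6 to 21.4, 17.96, and 21.1 in T58A. In S62A it went from 41.6, 41.2, and 41.7 to 10.1, 8.43, and 12.9 and in T58A S62A from 72.5, 77.8, and 75.2 to 28.5, 17.6, and 29.5. PSMG2 was also lower without overlap in every line.

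PSMG3 fell by 1.78 (SE 0.087, limma adjusted p = 4.77e-17), or 3.44-fold. It was at 171, 166, and 169 in DMSO and 40.4, 45.3, and 42.4 in CYC065 in SH-EP, and at 167, 90.6, and 93.3 against 23.4, 22.6, and 22.0 in WT. In T58A it was at 121, 81.3, and 144 against 44.2, 40.6, and 35.2, in S62A at 56.9, 57.4, and 48.4 against 18.1, 14.8, and 15.0, and in T58A S62A at 96.3, 80.4, and 93.9 against 31.3, 31.3, and 41.4, again without overlap in any line. PSMG4 (-1.29) and PSMG1 (-1.21) followed, whereas PSMD9 and PSMD10 (-0.84 each) changed like the ATPases. On FPKM as deposited PSMD5 still fell by 1.14, PSMG2 by 0.62, PSMG3 by 0.45, and PSMC6 by 0.42, while PSMG1 rose by 0.13 and PSMG4 was at 0.05 without passing. The activators PSME1 (-0.47) and PSME2 (-0.56) changed like the core, PSME3 (-1.16) and PSME4 (-1.04) fell further, and PSMF1 fell by 0.93. Of the 30 related genes, 30 fell in the mean on the spike-in scale (all tested genes 94.4%) with a median of -0.88, among them POMP (-0.46), SHFM1 (-0.48), UBE3A (-1.95), and DDI2 (-2.34). As deposited, FPKM of 21 of them were higher and of 7 lower (all genes 46.9% and 39.8%), with POMP at 0.89 and SHFM1 at 0.87, while UBE3A (-0.62) and DDI2 (-1.06) were lower there too.

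**Figure D5:**
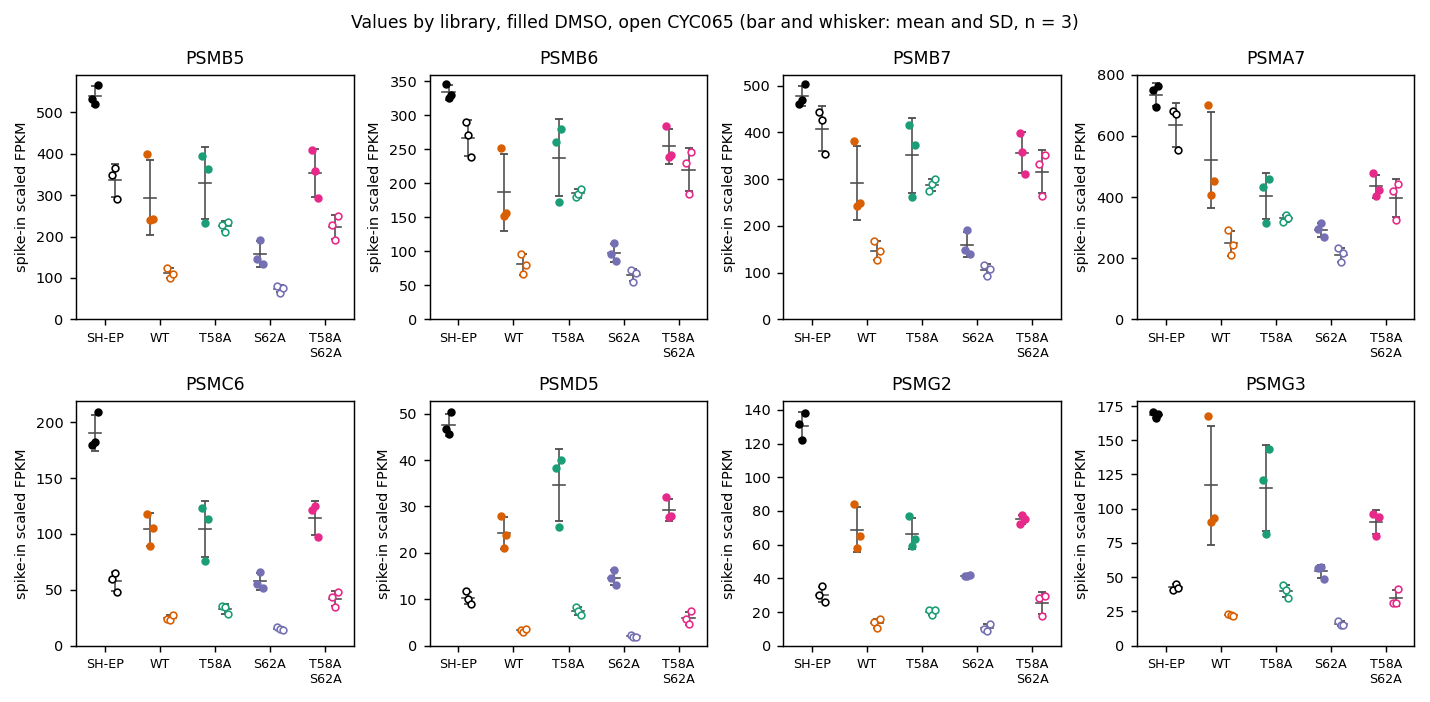
Spike-in scaled FPKM in every library for 8 members, filled points DMSO and open points CYC065, with bars and whiskers for the mean and SD (n = 3). PSMD5, PSMG2, PSMG3, and PSMC6 separate by treatment in all 5 lines, and PSMA7, PSMB6, and PSMB7 do so less.

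The last comparison asked whether the response to CYC065 differed between each MYCN line and SH-EP, as an interaction in the same fit. In WT cells 4 members fell further than in SH-EP and none less (all tested genes 16.3% and 1.89%), with a members' median of -0.59 against -0.52 for all genes, and 27 of 44 had an unadjusted p under 0.05. They were PSMA7 (-0.82, SE 0.25, limma adjusted p = 0.036), PSMB6 (-0.86, SE 0.27, limma adjusted p = 0.0369), PSMC3 (-0.82, SE 0.26, limma adjusted p = 0.0383), and PSMD4 (-0.77, SE 0.26, limma adjusted p = 0.0427). PSMA7 was at 749, 694, and 762 in DMSO and 682, 670.3, and 554 in CYC065 in SH-EP, against 700.4, 408, and 454 and then 292, 211, and 244 in WT. PSMC3 was at 353, 359, and 374 and then 271, 273, and 228 in SH-EP, against 270.2, 157, and 175 and then 91.4, 68.2, and 76.6 in WT. The WT library numbered 0 stood above the other WT libraries in DMSO in both genes, as in PSMB6 and PSMD4 (324 against 202 and 199). Leaving out that library, any SH-EP DMSO library, the SH-EP CYC065 libraries numbered 0 or 1, or the WT CYC065 libraries numbered 1 or 2 gave 0 members, while leaving out the WT DMSO library numbered 1 gave 26, the SH-EP CYC065 library numbered 2 gave 18, the WT CYC065 library numbered 0 gave 17, and the WT DMSO library numbered 2 gave 7. For the T58A, S62A, and T58A S62A lines 0 members passed with limma (all tested genes in either direction 2.59%, 4.95%, and 5.41%), with 0, 1, and 2 members at an unadjusted p under 0.05.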

How the data were processed

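RNA-Seq of 30 libraries (5 lines, DMSO or CYC065, 3 per group) was analysed from 1 table of FPKM values. Per the sources, the authors aligned reads to hg19 with HISAT2 and deposited FPKM from Cufflinks 2.2.1. The gene annotation behind it is not given in the sources used here, and neither are read counts. Synthetic spike-in RNAs were added by cell number, and 55 of 92 averaging 1 FPKM or more gave a scaling factor per library for the spike-in scale.

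The test covered genes averaging 1 FPKM or more over all libraries, on log2(FPKM + 0.1) with limma 3.58.1 in R 4.3.3, in 1 fit of all 10 groups (20 residual degrees of freedom), with Benjamini-Hochberg adjustment over all 11575 genes and a threshold of 0.05. The added constant shrinks the fold changes of low genes. FPKM as deposited served for differences between lines, and the spike-in scale for CYC065 against DMSO. The scripts were tested on simulated data. Values by library are given for PSMB5, PSMB6, PSMB7, and PSMB10 and, per comparison, for the 3 largest rises and the 3 largest falls of the mean contrast past the threshold. PSMC3, PSMC6, and PSME3 were added after their values were seen. Members and lists were chosen with earlier results of these data known. Gene positions are GRCh37, and promoters are RefSeq, GRCh38.p14, with 40 of 46 members matched (not PSMA7, PSMB1, PSMB6, PSMB7, PSMD4, or PSMG3). Of the members, 17 have annotated pseudogenes (44 in all) that could share reads. Alternatives were other pseudocounts (0.01 and 1), a filter of 5 FPKM or none, a minimum change of 1.5-fold, the other scaling, centring, 21 spike-ins of at least 50 FPKM, the compared groups alone, and leaving out each library. Columns number libraries of a group 0 to 2. Some genes of the marker and related lists are not reported here.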

Additional observations from a re-analysis of the deposited data

Results flagged for a closer look

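In 4 members the response to CYC065 on the spike-in scale differed between WT MYCN cells and SH-EP, by the test of the interaction itself with limma. These are 4 of 44, where 16.3% of all tested genes fell further in WT. PSMA7 fell further in WT by 0.82 on the log2 scale (-0.82, SE 0.25, adjusted p = 0.036), PSMB6 by 0.86 (-0.86, SE 0.27, adjusted p = 0.0369), PSMC3 by 0.82 (-0.82, SE 0.26, adjusted p = 0.0383), and PSMD4 by 0.77 (-0.77, SE 0.26, adjusted p = 0.0427). The median difference over all tested genes was -0.52. The 4 passed narrowly, and leaving out single libraries gave between 0 and 26 such members.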

How the results depend on the processing

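The scale set the direction of most results. On the spike-in scale, members higher in the MYCN lines numbered 0 in every contrast and members lower numbered 42 in WT, 42 in T58A, 44 in S62A, 38 in T58A S62A, and 44 in the mean (all genes 69.7% to 95.04%), with PSMG1 at -0.40, PSMG4 at -0.42, PSMA2 at -0.73, PSMB5 at -1.02, PSMB6 at -0.89, and PSMB7 at -0.81. Against WT, 0 were lower in T58A, T58A S62A, and the mean and 44 in S62A, with 0 higher in S62A and the mean. On FPKM as deposited, CYC065 gave 35 higher and 4 lower in SH-EP, 37 and 4 in WT, 37 and 4 in T58A, 36 and 3 in S62A, 39 and 4 in T58A S62A, and 39 and 4 in the mean (all genes 36.98% to 46.9% higher and 33.3% to 39.8% lower), with PSMB5 at 0.48, PSMB6 at 0.81, PSMB7 at 0.90, and PSMB10 at 0.77, and the interaction gave 1 higher and 13 lower in WT, 1 higher in T58A, 4 and 1 in S62A, 3 and 2 in T58A S62A, and 3 and 4 in the mean (all genes 9.90% to 12.95% and 13.7% to 20.3%). Centring gave 37 and 4, 39 and 4, 38 and 3, 39 and 3, 39 and 3, and 39 and 4 in the same order for CYC065 (all genes 45.2% to 53.9% and 27.3% to 33.8%, PSMB5 0.64, PSMB6 0.98, PSMB7 1.06, PSMB10 0.94), and for the interaction 2 and 7 in WT, 4 higher in T58A, 5 and 1 in S62A, 3 and 2 in T58A S62A, and 5 and 1 in the mean (all genes 11.03% to 13.96% and 10.2% to 16.4%). A minimum change of 1.5-fold left 4, 2, 2, 2, and 2 higher in WT, T58A, S62A, T58A S62A, and the mean against SH-EP and 1, 1, 2, 0, and 0 lower. Against WT it left 1, 1, 2, and 0 lower in T58A, S62A, T58A S62A, and the mean and 0 higher, and with CYC065 21 lower in T58A and 19 in T58A S62A. The WT interaction gave 8 members with a filter of 5 FPKM and 0 without a filter, with the groups alone, or with the 21 most abundant spike-ins, which also gave 14 lower with CYC065 in T58A. The groups alone gave 1 lower in WT against SH-EP, and against WT MYCN 0 higher and 4 lower in S62A, 0 and 5 in T58A S62A, and 0 higher in the mean. Leaving out each library gave 0 to 26 members for the WT interaction, 4 to 18 lower and 0 to 1 higher in S62A against WT, 0 to 1 higher in T58A, 0 to 2 in T58A S62A, and 0 to 1 in the mean. With CYC065 it gave 21 to 44 lower in T58A (21 without the DMSO library numbered 0 or 2) and 18 to 31 in T58A S62A (18 without the CYC065 library numbered 1 and 19 without the DMSO library numbered 0). The cause of these changes was not tested. No paired analysis was possible because the columns number the libraries 0 to 2, which do not match the labels' replicate numbers 1 to 3. Read depth is unknown beyond its relative value, so no counting intervals were given.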

Other observations

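The immunoproteasome subunits PSMB8 and PSMB9 were left out of the set. PSMB9 was at 13.6, 12.3, and 12.6 FPKM in SH-EP in DMSO, 4.50, 4.07, and 3.46 in WT, 6.51, 7.54, and 7.87 in T58A, 2.80, 4.04, and 2.92 in S62A, and 8.23, 6.70, and 10.2 in T58A S62A. All 12 MYCN libraries lay below SH-EP, and the mean of the lines was -1.27 on the log2 scale with limma (-2.51 on the spike-in scale). PSMB8 was at 30.4, 30.1, and 30.8 FPKM in SH-EP and 21.1 to 35.0 FPKM in the MYCN lines, with a mean of -0.18 that did not pass in T58A or T58A S62A alone. With CYC065 on the spike-in scale PSMB8 fell by 0.92 and PSMB9 by 0.63, whereas on FPKM as deposited they rose by 0.42 and 0.69.

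ADRM1, a ubiquitin receptor of the regulatory particle, lies 158652 bp from PSMA7 and was higher than SH-EP in WT (0.50) and S62A (0.50) on FPKM as deposited but lower on the spike-in scale (-0.76 and -1.45), whereas T58A (0.02) and T58A S62A (0.14) did not pass on FPKM as deposited, nor did PSMA7 in the same lines (0.07 and 0.07). Among genes that act with the proteasome, DDI2 fell by 2.34 with CYC065 on the spike-in scale, its substrate NFE2L1 by 0.87, and the ubiquitin ligase UBE3A by 1.95, next to -1.20 for the median tested gene. DDI2 (-1.06) and UBE3A (-0.62) were also lower on FPKM as deposited, and NFE2L1 was higher (0.48).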
